A study of Zea mays with 10 samples.

Results

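A set of 9 genes of the cell cycle and of chromatin replication was followed in maize stems. They were the cyclin-dependent kinase gene cdc2 (LOC542270), the D-type cyclin gene cycD2 (LOC541915), the origin recognition gene orc4 (LOC541939), the sliding clamp genes pcna1 (LOC542425) and pcna2 (LOC542357), the linker histone genes his1 (LOC542385) and his1a (LOC541964), the centromeric histone gene cenH3 (LOC542500) and the kinesin gene KIN6 (LOC541860). They are 9 of the 1108 genes that the probe annotation names, and they were found by symbol or synonym on 16 of the 17734 probe sets of the Affymetrix maize array. The genes were picked on measured values, namely earlier contrasts between lines on these same arrays. Differences between lines in these 9 genes are therefore a description, and no p-value is attached to them.

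The samples were untreated stems of 5 inbred lines, each line measured on 2 arrays, and each array holding RNA pooled from 5 plants. Line F7025 has a Flint-Dent grain and came from the genotype IodentXF113bm3, whose name holds the lignin mutation bm3, though the label does not say whether the line carries it. Line F7033, Flint-Dent, came from (LorenaXF252)XF252. Line F98902, Dent, came from Iodent. Line F2, Flint, came from lacaune. Line Cm484 is Flint-Dent, and its source is given by a number code only. Nothing in the labels says that the 2 pools of a line grew in separate plots, so spreads and p-values reflect how far 2 pools differ, part of which can be technical. The series was set up to find genes that bear on how degradable the stem wall is.

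In plants as in other eukaryotes, D-type cyclins couple growth signals to entry into the cell cycle, and cyclin-dependent kinases drive its steps once bound to a cyclin. The origin recognition complex marks the sites where DNA replication starts, and the ring of proliferating cell nuclear antigen (PCNA) clamps DNA polymerase to its template. New chromatin then needs histones, among them H1, which binds the linker DNA between nucleosomes, and CENH3, which replaces histone H3 at centromeres. In a grass stem, division is concentrated in the meristems at the tip and at the base of each internode.

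All values are on a log2 scale, so a difference of 1 is a doubling of signal. Values under 4 lie near the floor of the method and carry little information. Where a line mean is under 4, a fold is given as a lower bound, computed with 4 in its place. For pcna2 in F2 this gives no bound, because the F98902 mean was raised to 4 as well. For F98902, F2 and Cm484, array 2 was made from 20 µg of RNA, against 60 to 100 µg for the other arrays. Over all probe sets, arrays within a line reached r = 0.985 to 0.997 and arrays of different lines no more than 0.977. Genes of the lignifying stem wall matched the tissue label, with all 5 found on the array at 9.49 or more everywhere. Their summed linear signal was lowest in Cm484, at 9600 to 9700, against 12200 to 20000 in the other lines. Leaf photosynthesis genes, present in green stem, summed to 32000 to 32300 in F7033 and 16800 to 28100 in the other lines. The part of tissue make-up in the line differences was not tested. Of 6 kernel storage genes 1 reached 4, zp27, at 5.33 to 7.13 over all arrays. Of 4 pollen genes 1 did, TUA1, at 9.17 to 9.96. In bulk stem RNA, fewer dividing cells and less RNA per dividing cell cannot be told apart.

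The 9 genes did not share a common order of the lines. With 1 probe set per gene (the brightest on average), Cm484 and F7033 were each the highest line for 3 genes, F2 for 2, F98902 for 1 and F7025 for none. The lowest line was F7025, F98902, F2 or Cm484 for 2 genes each, and F7033 for 1. Line means spanned a median of 1.64 log2 over the 9 genes, against 1.03 over the 11067 probe sets tested, and 8 of the 9 spanned at least 1, as did 5722 of the 11067. The genes were picked on such contrasts, so nothing is read from this. For pcna2, F2 and F98902 both averaged under 4, so which of them was lowest is not settled. Of the 36 pairs of neighbours in these orders, 14 had overlapping arrays, so that their order is not settled by 2 pools. No such count was made over all probe sets, so it is not read as a trait of these genes.

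**Figure D1:**
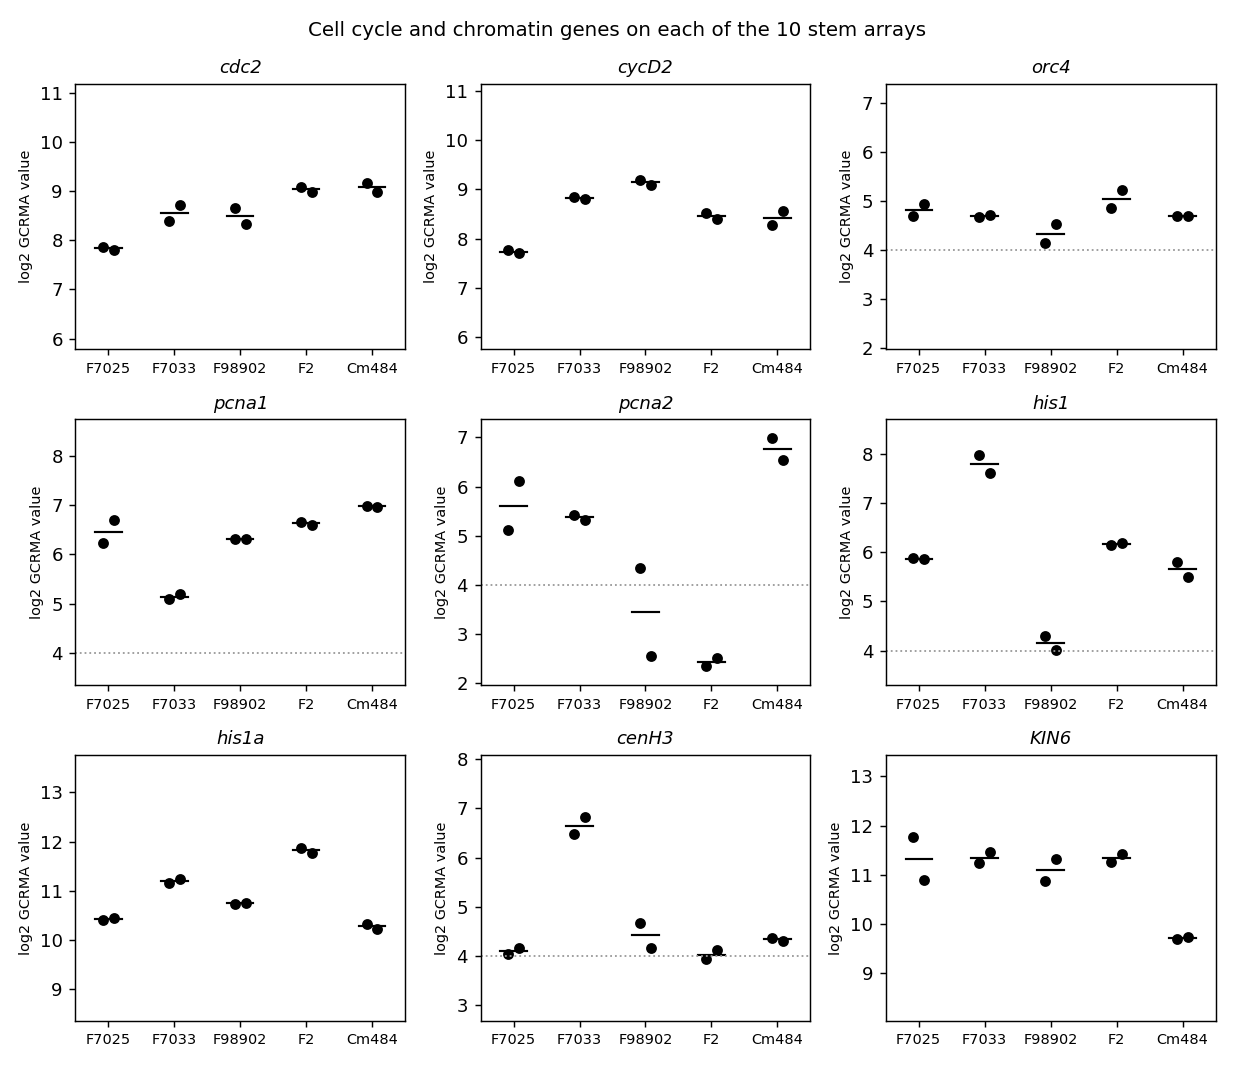
Log2 GCRMA value (y axis) of each gene on each array (points) by inbred line (x axis), with the line mean as a bar, n = 2 arrays per line. Every panel covers the same height in log2 units, and the dotted line marks 4. The highest and the lowest line change from gene to gene.

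Of the regulators, cycD2 and cdc2 were both lowest in F7025. The cyclin gene cycD2 had values of 7.76 and 7.71 in F7025, against 8.84 and 8.80 in F7033, 9.19 and 9.09 in F98902, 8.51 and 8.39 in F2, and 8.28 and 8.57 in Cm484. Both F7025 arrays lay under all 8 others, and the arrays of F2 and Cm484 overlapped. F7025 averaged 7.74 ± 0.04 (SD, n = 2), against 8.71 for the mean of the other 4 lines, a log2 difference of −0.97 (SE 0.10). Each SE comes from the limma fit, which shares the spread over all lines and draws it towards that of other probe sets. The high end was F98902, at 9.14 ± 0.07 (SD, n = 2), or 1.72-fold above the mean of the other lines.

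The kinase gene cdc2 was measured by 2 probe sets that gave the same order of lines but very different sizes. The set with the suffix _a_at, which marks probes shared by several transcripts of 1 gene, read 7.87 and 7.80 in F7025, against 8.40 and 8.71 in F7033, 8.66 and 8.34 in F98902, 9.08 and 8.99 in F2, and 9.17 and 8.99 in Cm484. F7025 again lay under every other array, and Cm484 overlapped with F2 and F7033 with F98902. The second probe set, with the suffix _at, read 4.11 and 2.89 in F7025, against 7.45 and 7.54 in F7033, 7.46 and 7.04 in F98902, 8.09 and 7.95 in F2, and 8.24 and 8.05 in Cm484. F7025 was thus 1.94-fold lower than the mean of the other lines by the first probe set and at least 13.3-fold lower by the second. One of the 2 F7025 pools was under 4 in the second set and the other just above it, so only the bound is given. Among the other 4 lines the 2 probe sets kept the same order, with Cm484 and F2 above F7033 and F98902. What sets the probe sets apart in F7025 was not tested.

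Genes that load and clamp the replication machinery were placed differently in each case. The subunit gene orc4 varied least of the 9, but all its values, 4.14 to 5.23, lay little above the floor value of 4. It read 4.14 and 4.53 in F98902, against 4.70 and 4.93 in F7025, 4.68 and 4.71 in F7033, 4.85 and 5.23 in F2, and 4.70 and 4.70 in Cm484. F98902 was lowest, by 0.48 log2 under the mean of the other lines (SE 0.16), and that difference was −0.28 without F98902 replicate 1 and −0.67 without F98902 replicate 2. The remaining neighbours in the order (F2, F7025, Cm484 and F7033) overlapped.

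For the clamp, pcna1 was lowest in F7033 and pcna2 near the floor in F2. The array values of pcna1 were 5.10 and 5.19 in F7033, against 6.23 and 6.70 in F7025, 6.31 and 6.32 in F98902, 6.67 and 6.59 in F2, and 6.99 and 6.97 in Cm484. F7033 stood below all other arrays, at 5.15 ± 0.06 (SD, n = 2) against 6.60 for the mean of the other lines, 2.73-fold lower. Cm484 stood above all other arrays and was 1.79-fold higher than the mean of its other lines, while F2, F7025 and F98902 overlapped in turn.

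The second clamp gene, pcna2, read 2.35 and 2.52 in F2, against 5.11 and 6.11 in F7025, 5.43 and 5.32 in F7033, 4.35 and 2.56 in F98902, and 6.98 and 6.55 in Cm484. F2 was at least 2.71-fold lower than the mean of the other lines, and Cm484 at least 4.05-fold higher. The arrays of F7025 and F7033 overlapped. The 2 pools of F98902 lay on either side of 4, and the lower of them came from 20 µg of RNA. F7033, the lowest line for pcna1, was the middle line of the 5 for pcna2. F2, near the floor for pcna2, was next below Cm484 for pcna1, where it overlapped with F7025. The clamp genes are close relatives, and how far the probes of one detect the other was not tested.

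Of the linker histone genes, his1 was highest in F7033 and lowest in F98902. Through its brightest probe set, with the suffix _x_at, his1 read 7.98 and 7.61 in F7033, against 5.88 and 5.86 in F7025, 4.30 and 4.02 in F98902, 6.14 and 6.19 in F2, and 5.80 and 5.50 in Cm484. No neighbouring lines overlapped. F7033 averaged 7.80 ± 0.26 (SD, n = 2), 5.04-fold above the mean of the other lines, and F98902 averaged 4.16 ± 0.20 (SD, n = 2), 4.64-fold below the mean of its other lines. This rests on 1 of the 6 probe sets of his1, and the suffix _x_at marks a set in which some probes also match other sequences.

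The other 5 probe sets of his1 were near the floor. In 3 of them, all values lay between 1.66 and 2.30. Another read 2.91 and 3.45 in F7033, against 2.53 to 3.05 elsewhere, where it overlapped with F98902. The last read 3.48 and 4.42 in F98902, the line at the bottom in the brightest set, and 2.75 to 2.91 in the other lines, so that 1 of its 10 values was above 4. Among the 6 probe sets, only the brightest had values above 4 on more than 1 array.

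The second H1 gene, his1a, also listed as hon102, was highest in F2. It read 11.88 and 11.77 in F2, against 10.40 and 10.44 in F7025, 11.16 and 11.24 in F7033, 10.74 and 10.75 in F98902, and 10.33 and 10.23 in Cm484. No neighbouring lines overlapped, and pools of a line differed by at most 0.11 log2. F2 averaged 11.83 ± 0.08 (SD, n = 2) and was 2.24-fold above the mean of the other lines. Cm484 was lowest, 1.70-fold below the mean of its other lines. Another linker histone gene, hon101, is no member of the 9 and was chosen for mention after its values were seen. It read 10.05 and 10.04 in F7033, 9.52 and 9.35 in F2, 8.38 and 8.51 in F7025, 8.53 and 8.31 in Cm484, and 8.15 and 7.51 in F98902. Like his1, it was thus highest in F7033 and lowest in F98902, while his1a had F2 on top.

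Centromere and motor genes each had a single line apart. The centromeric histone gene cenH3, through its _a_at probe set, read 6.47 and 6.83 in F7033, against 4.04 and 4.17 in F7025, 4.67 and 4.17 in F98902, 3.93 and 4.12 in F2, and 4.36 and 4.31 in Cm484. F7033 was 5.40-fold above the mean of the other lines, whose arrays lay around the floor value of 4 and partly overlapped. Its second probe set, with the suffix _at, read between 2.14 and 2.20 on all 10 arrays, F7033 included, so the difference of F7033 rests on 1 of 2 probe sets. Among pairs of the 9 genes, cenH3 and pcna1 were the most opposed over the 10 arrays (r = −0.90), F7033 being the top line of the first and the bottom line of the second.

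KIN6, a gene of the kinesins, motor proteins that move along microtubules, read 9.70 and 9.73 in Cm484, against 11.76 and 10.89 in F7025, 11.24 and 11.46 in F7033, 10.87 and 11.33 in F98902, and 11.27 and 11.42 in F2. Cm484 was below every other array, at 9.71 ± 0.02 (SD, n = 2) against 11.28 for the mean of the other lines, 2.96-fold lower. The other 4 lines could not be ordered, since neighbours overlapped throughout, and the pools of F7025 alone differed by 0.86 log2.

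**Figure D2:**
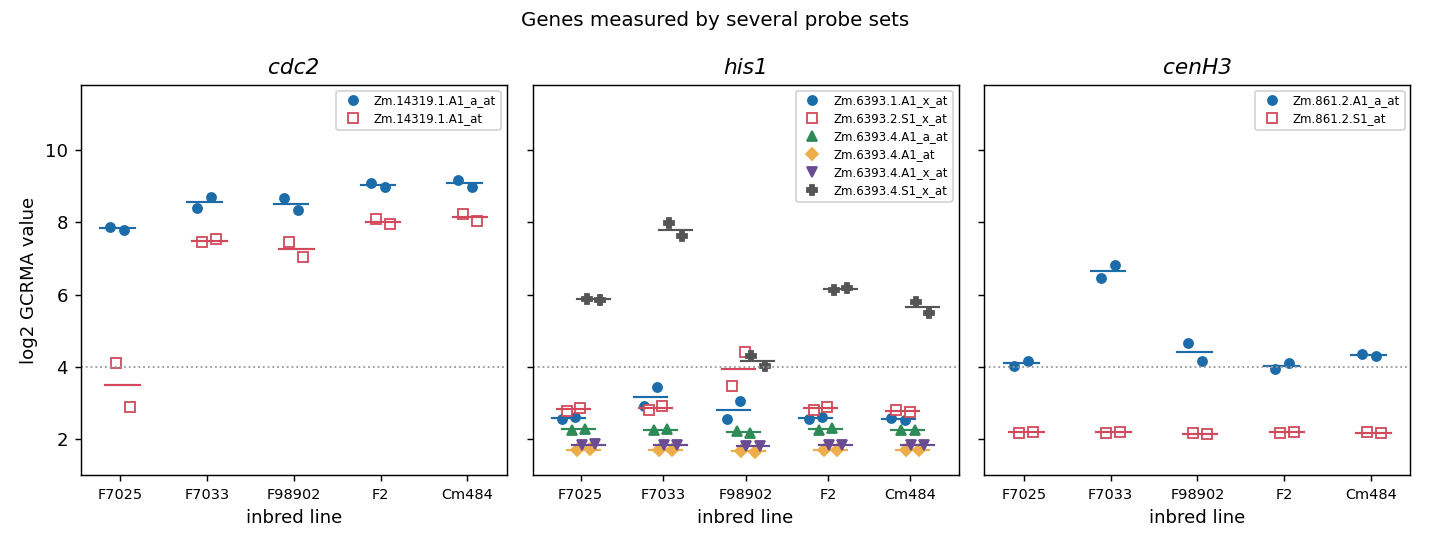
Log2 GCRMA value (y axis) of every probe set of cdc2, his1 and cenH3 on each array (points) by inbred line (x axis), with line means as bars, n = 2 arrays per line, and a dotted line at 4. The probe sets of cdc2 separate in F7025, where the second reads 4.11 and 2.89, and single probe sets carry his1 and cenH3.

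**Figure D3:**
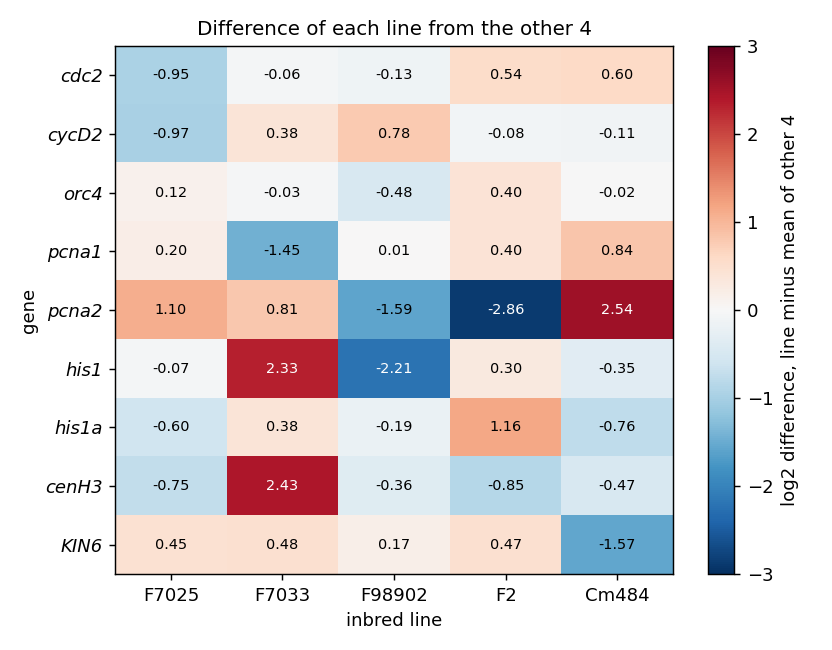
Log2 difference of each inbred line (columns) from the mean of the other 4 lines, for the 9 genes (rows), 1 probe set per gene. The values include readings near the floor for pcna2. The line farthest from the others changes from gene to gene, with F7033 at 2.33 for his1 and 2.43 for cenH3.

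In the fit over all probe sets (limma, Benjamini-Hochberg adjusted p under 0.05), the F-test over the 5 lines called 8 of the 9 genes, all but orc4, and 73.9% of all probe sets tested. In F7025, none was higher and 4 were lower than the mean of the other lines, with 16.6% of all probe sets higher and 20.8% lower. F7033 had 4 higher and 1 lower (22.2% and 23.2%), F98902 1 and 3 (20.7% and 23.3%), F2 3 and 2 (25.4% and 17.7%) and Cm484 3 and 2 (18.4% and 18.5%). Taking both directions together, the share of all probe sets called was 45.4% for F7033, 44% for F98902, 43.2% for F2, 37.4% for F7025 and 36.9% for Cm484. These contrasts were known when the genes were picked, so nothing is read from these counts. In F2 the 5 calls became 2 without F2 replicate 1 and 3 without F2 replicate 2. Of the 16 probe sets 10 passed the filter of a value of 4 on 2 arrays, and the other 6 (5 of his1 and 1 of cenH3) were not tested.

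Beside these genes stand the regulators of the shoot meristem. Of 12 KNOTTED-class symbols looked for, kn1 and lg3 were found, and both were above 4 on every array, kn1 at 9.06 to 9.76 and lg3 at 5.50 to 9.11. Their summed linear signal was 579 to 588 in F7025, 929 to 945 in F7033, 837 to 879 in F98902, 1110 to 1180 in F2 and 911 to 920 in Cm484. F7025 was the lowest line and F2 the highest. Of the 9 genes, cycD2 and cdc2 were also lowest in F7025 and the other 7 were not, and F2 was the highest line for orc4 and his1a. The part of meristem tissue in the differences described here was not tested.

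A wider view came from 79 other genes of these processes, found by symbol patterns and each taken through its brightest probe set on average. Of these, 20 stayed under 4 on all 10 arrays, as did 35.2% of all probe sets, and 55 passed the filter. Among the 20 were several regulators, chosen for mention after their values were seen. The cyclin genes cyc1, cyc2, cyc3 and cycD1 read between 2.01 and 2.37, wee1, the gene of a kinase that restrains mitotic entry, between 2.19 and 2.30, and the spindle checkpoint gene mad2 between 2.16 and 2.21. The division plane gene tan1 read 2.36 to 2.47. By list, 7 of 10 centromere, kinesin and division plane genes stayed under 4 on all arrays, 5 of 8 cyclins, CDKs and regulators, 3 of 7 replication genes, 4 of 33 chromatin modification genes and 1 of 21 histones, HMG proteins and chaperones. Differences between the lists were not tested.

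Of the 55 genes tested, the F-test called 30, against 73.9% of all probe sets. F7033 had 15 higher and 4 lower, with 22.2% of all probe sets higher and 23.2% lower. F7025 had 5 higher and 12 lower (16.6% and 20.8%), F98902 6 and 12 (20.7% and 23.3%), F2 6 and 8 (25.4% and 17.7%) and Cm484 9 and 10 (18.4% and 18.5%). The median log2 difference over the 55 genes was 0.16 in F7033, −0.12 in F7025, −0.06 in F98902, 0.06 in F2 and 0.17 in Cm484, against −0.02, −0.05, −0.04, 0.10 and 0.00 over all probe sets tested in the same order of lines. These counts depend on single arrays. The 19 calls of F7033 became 8 without F7033 replicate 1 and 11 without F7033 replicate 2, the 17 of F7025 became 8 without F7025 replicate 1, and the 18 of F98902 became 10 without F98902 replicate 2. The 14 of F2 became 7 and 9 without F2 replicate 1 and 2, and the 19 of Cm484 became 6 and 10 without Cm484 replicate 1 and 2 and 12 without F2 replicate 1.

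**Figure D4:**
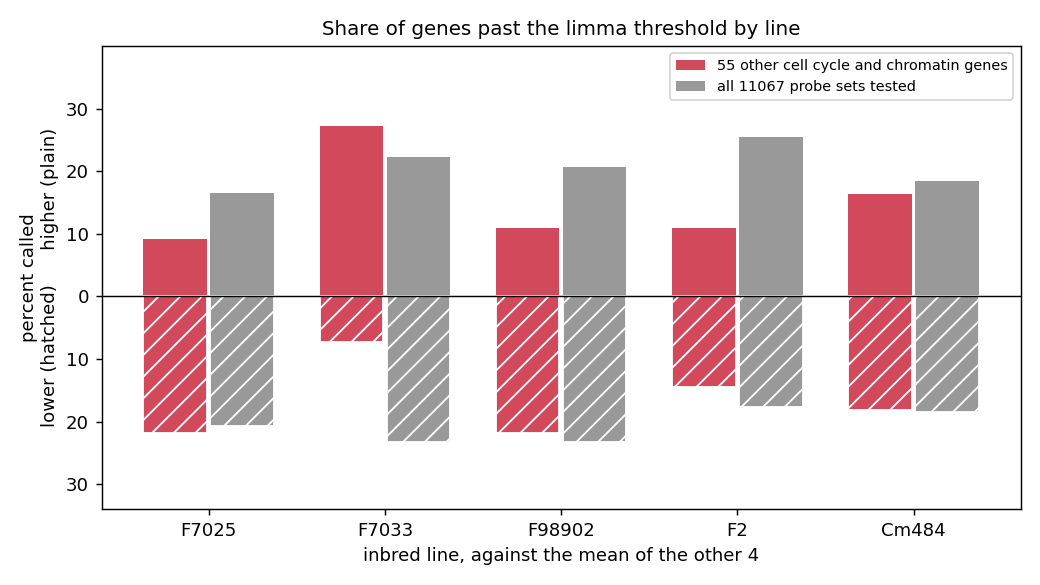
Percent of genes or probe sets (y axis) past the limma threshold (adjusted p under 0.05) in the contrast of each line with the mean of the other 4 (x axis), higher above 0 and lower, hatched, below 0. Bars on the left of each pair are the 55 other cell cycle and chromatin genes and those on the right all 11067 probe sets tested. F7033 has 15 of the 55 higher and 4 lower.

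By list, chromatin modification counted 27 tested genes, of which 3 were higher and 8 lower in F7025 (16.6% and 20.8% of all probe sets), 8 and 2 in F7033 (22.2% and 23.2%), 5 and 6 in F98902 (20.7% and 23.3%), 3 and 4 in F2 (25.4% and 17.7%) and 3 and 6 in Cm484 (18.4% and 18.5%). The DNA methyltransferase gene met2 read 3.83 and 4.08 in F2, against 5.36 to 6.04 in the other lines, and was at least 3.35-fold lower in F2 (limma adjusted p = 0.000135). The SET domain gene sdg110, of a family of histone methyltransferases, read 7.00 and 6.91 in Cm484 and 6.89 and 6.86 in F7025, against 4.40 to 4.92 in the other 3 lines. Its level in Cm484 was 3.34-fold above the mean of the other 4 (limma adjusted p = 3.25e-05).

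Histones, HMG proteins and chaperones counted 20 tested genes, with 2 higher and 3 lower in F7025, 6 and 1 in F7033, 0 and 5 in F98902, 2 and 4 in F2, and 6 and 2 in Cm484, beside the same shares of all probe sets. The HMG-type gene nfd101 read 4.05 and 3.97 in F2 and 4.70 and 4.11 in F98902, against 6.15 to 6.78 in the other lines. Its level in F2 was 3.87-fold lower than the mean of the other 4 (limma adjusted p = 4.41e-05). The probe set used has the suffix _s_at, and how far its probes detect other genes was not tested. The histone H2B gene his2b5 read 3.99 and 3.87 in F98902, against 4.59 to 6.41 elsewhere, and was at least 2.74-fold lower there (limma adjusted p = 0.00366).

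Few genes closest in role to the 9 were measurable. The origin recognition gene orc1 read 4.95 and 4.75 in F7033, against 3.74 to 4.79 in the other lines, at least 1.57-fold higher (limma adjusted p = 0.00174), and overlapped with F98902, where it was called higher as well. It was called lower in F7025 and Cm484, but all its values, 3.74 to 4.95, lay around the floor value of 4. The other 2 tested replication genes, orc3 and MCM6, were called in no line through the probe set used. A second tested probe set of MCM6 was left aside, and the difference of Cm484 from the other lines was 1.3 log2 apart between the 2 sets. CDC5 was 1.38-fold lower in F7033 (limma adjusted p = 0.0225), at 6.82 and 7.06, against 6.99 to 7.68 in the other lines, a call lost without F7033 replicate 1 (adjusted p = 0.215). RBR1, the gene of a retinoblastoma-related protein that restrains entry into the cell cycle, read 5.70 to 6.22 on the 10 arrays and passed in no line. The kinesin gene kin15 was 1.84-fold lower in Cm484 (limma adjusted p = 0.0108), at 6.53 and 6.05 against 6.20 to 7.80 elsewhere, and missed the threshold once Cm484 replicate 2 was left out (adjusted p = 0.122). It was also called lower in F98902 and higher in F2, while KIN1 and KIN9, the other tested genes of its list, were called in no line.

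The named genes with the most similar profile were sought for each of the 8 genes whose line means spanned at least 1 log2, among 399 other named genes with such a span, by Pearson's r over the 10 arrays of 5 lines. For cenH3 these were the alkaline alpha-galactosidase gene AGA1 and the choline synthesis gene PEAMT (both r = 0.978), which were also highest in F7033. For his1 they were DER2.2 (0.972) and mez2 (0.949), a Polycomb-group gene of the chromatin modification list, and for his1a sig3 (0.981) and DBP1a (0.954). The closest to pcna1 were tbp1 (0.966) and rpp2a-4 (0.948), and to pcna2 gpm645 (0.938) and sig1 (0.925). For cycD2 they were adh1 (0.951) and gpm108b (0.926), for cdc2 hcf106 and SRP2B (both 0.896), and for KIN6 pglcat8 (0.912) and the secondary wall cellulose synthase gene cesa10 (0.911). Arrays of a line resembled each other more than those of other lines, so these values describe 5 line profiles. Between the 9 genes themselves, the 36 pairwise correlations had a median of 0.06, and none exceeded 0.8.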

How the data were processed

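The deposited table held 1 log2 value per probe set and array. Per the submitters' processing notes the authors used GCRMA; its version is not given in the sources used here, and the log2 scale was read from the values (1.35 to 14.5). With its usual settings GCRMA adjusts background by probe sequence and makes the arrays alike in distribution, which would hide a shift common to all genes of 1 line. No further normalization was applied. Array numbers limit the precision of every value.

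Genes were named by the probe annotation, joined by gene identifier to the gene table of the B73 assembly. It named 1 gene for 1452 probe sets and several for 1. No coordinates are given, because the array files name no genome build. Control probe sets (113) were left out. A probe set entered the tests if 2 arrays or more reached 4, which left 11067. The model had line as its only term and used all 10 arrays (limma 3.58.1, R 4.3.3; lmFit and eBayes with a variance trend; 5 residual degrees of freedom). Each line was set against the mean of the other 4, and p-values were adjusted within each contrast. All adjusted p-values for genes come from limma. The code was tested on simulated data. Tables and plots used Python 3.11.15, pandas 2.3.3 and matplotlib 3.10.9.

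The 9 genes, the lists and the patterns were chosen with earlier results of these data known. In each list, the 2 called genes with the largest line difference were named (1 where only 1 was called), and RBR1, orc3, MCM6, KIN1, KIN9, hon101 and the dim genes were added after their values were seen. Left out were umi11 and kds1, which matched cyclin and CDK patterns by a synonym only, and the hemoglobin gene GLB1, which matched a kernel marker.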

Additional observations from a re-analysis of the deposited data

How the results depend on the processing

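In all, 18 other settings were tried. The 9 genes were picked on line contrasts of these same arrays, so nothing is read from how their calls held. The largest difference of each of the 16 probe sets of the 9 genes kept its sign in 285 of 288 values; the other 3, all near the floor under quantile normalization, were 0.00, and 17 values moved by more than the spread within lines. Without any 1 array, the probe sets called ranged from 6680 to 8443 in the F-test, from 2558 to 4484 in F7025, 2533 to 5321 in F7033, 3331 to 4900 in F98902, 2501 to 5180 in F2 and 2072 to 4544 in Cm484. Among the other cell cycle and chromatin genes the ranges were 24 to 38, 8 to 22, 8 to 22, 10 to 22, 7 to 17 and 6 to 27 in the same order, and among the 9 genes 8 to 8, 3 to 5, 4 to 6, 3 to 4, 2 to 6 and 4 to 6. Without the 3 arrays made from 20 µg of RNA, where F98902, F2 and Cm484 keep 1 array each and are assumed to vary like the other lines, 4817 probe sets were called in the F-test, 2083 in F98902, 2098 in F2 and 1469 in Cm484. The other cell cycle and chromatin genes then gave 19, 8, 7 and 6, and the 9 genes 2, 3 and 3 in these lines; kin15 was not called (adjusted p = 0.22). Without the filter, F98902 had 8815 calls and 32 among the other genes, and with array weights F2 had 22. With the replicate block, 8069 probe sets were called in the F-test, 5017 in F7033, 4858 in F98902, 4777 in F2, 4125 in F7025 and 4075 in Cm484, and 4 of the 9 genes in F2. The array numbers share no stated source: changes from array 1 to array 2 correlated between lines at −0.38 to 0.37, over 0.1 in 5 of 10 pairs. A filter at 6, quantile normalization, medians set equal and no variance trend moved no count past 1.5 times. Probe sets near the floor limit what can be said of pcna2, cenH3, orc4, most of his1 and, outside the 9 genes, orc1.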

Other observations

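Among the 115 named genes with at least 2 tested probe sets, the largest gap between probe sets in the difference of a line from the other 4 had a median of 0.65 log2, values under 4 included as measured. For cdc2, which was picked on line contrasts, that gap was 3.28 log2, in F7025, rank 7 of the 115. In 10 of the 115 genes, 2 probe sets were called in opposite directions in the same line, and cdc2 was not among them.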
